A study of Mus musculus with 4 samples.

Results

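The intermediate filament proteins typical of neural cells are encoded by 8 genes, and all 8 were found by gene name, once each, among the 48395 genes of the deposited table. They are Vim, Nes, Gfap, Ina, Nefl, Nefm, Nefh and Prph. RNA of 4 libraries was measured, each from fluorescent cells sorted out of the forebrain cortex of ICR mouse embryos at E16.5. All cortices had been electroporated in utero at E14.5, 48 hours earlier, with a plasmid under the ubiquitous CAG promoter. The 2 control libraries received CAG-IRES-ZsGreen, which gives the green fluorescent protein ZsGreen alone, and the 2 Zeb1 libraries received CAG-Zeb1-IRES-ZsGreen, which adds the transcription factor ZEB1. Whether replicates are separate litters, or pools of embryos, is not in the labels, so each p-value covers only the spread among these 4 libraries, which may be technical.

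Intermediate filaments are rope-like polymers of rod-shaped proteins that give a cell mechanical strength and help to place its organelles. In the embryonic cortex, radial glia, the stem cells that line the ventricle and send a long fibre to the brain surface, build theirs from vimentin and nestin. Newborn neurons replace these with alpha-internexin and, as axons grow and mature, with the light, medium and heavy neurofilament subunits. Glial fibrillary acidic protein marks astrocytes, which mostly form after birth, and peripherin marks peripheral and some brainstem neurons. Vimentin is also abundant in mesenchymal, endothelial and microglial cells, and it is a standard marker of the epithelial-to-mesenchymal transition that ZEB1 promotes in other tissues.

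The sequences before the start sites of the 3 most abundant members are shown because ZEB1 binds DNA at E-boxes and it was overexpressed in the Zeb1 libraries. Each is the 250 bases before the gene's start in RefSeq on GRCm38.p6, 5′ to 3′ on the gene's strand, with capitals marking any match to the motifs searched. Vim is on the plus strand at chr2:13574061-13574310, Nes on the plus strand at chr3:87970843-87971092, and Ina on the plus strand at chr19:47014431-47014680. RefSeq starts can differ from those of the loci measured here. The Vim window lies inside its locus, which starts at 13573927, and the Nes window ends inside its own, which starts at 87971078.
Vim: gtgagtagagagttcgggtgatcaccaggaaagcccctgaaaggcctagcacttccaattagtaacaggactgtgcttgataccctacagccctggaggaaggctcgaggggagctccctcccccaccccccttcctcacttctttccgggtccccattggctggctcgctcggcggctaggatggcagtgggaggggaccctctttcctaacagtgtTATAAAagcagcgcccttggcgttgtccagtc
Nes: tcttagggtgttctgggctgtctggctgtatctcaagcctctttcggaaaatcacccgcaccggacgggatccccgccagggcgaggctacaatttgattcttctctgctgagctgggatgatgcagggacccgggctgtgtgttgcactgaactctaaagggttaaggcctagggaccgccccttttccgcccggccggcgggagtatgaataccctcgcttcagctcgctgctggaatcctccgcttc
Ina: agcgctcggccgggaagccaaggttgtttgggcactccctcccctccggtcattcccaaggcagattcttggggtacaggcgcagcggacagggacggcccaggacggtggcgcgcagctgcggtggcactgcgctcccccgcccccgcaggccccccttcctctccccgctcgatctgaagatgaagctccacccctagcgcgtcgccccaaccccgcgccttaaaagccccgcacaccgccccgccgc
The motifs were the ZEB-type E-box CAGGTG and its core CACCT, which lies within the reverse complement of that E-box, both on either strand, and the TATA box TATAAA on the gene's strand. CAGGTG was in none of these 3 windows nor in those of Gfap and Prph, against 17.2% of all 32851 promoter windows of the same length. CACCT was found in the Prph window only of these 5, against 46.0% of all. TATAAA began 32 bases before the start of Vim and 31 before that of Prph, and 7.59% of all windows held it. Nefl, Nefm and Nefh were not searched. A match is a description of letters, and a missing match covers only this window. The Gfap window, like that of Vim, lies inside the locus measured here.

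The libraries were as labelled for Zeb1. It stood at 35.2 and 18.6 FPKM (fragments scaled to transcript length and sequencing depth) in the controls, against 5622 and 6227 FPKM where the Zeb1 plasmid was used, with a limma adjusted p of 0.0192. FPKM do not give the absolute depth, and the summed FPKM of a library ran from 570470 to 623499. The neuronal and radial glial marker lists were detected as the tissue label implies, with 18 of 18 and 19 of 19 genes averaging 1 FPKM or more. Microglial markers were also present and differed between libraries, as given beside Vim.

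Vim was by far the most abundant member. Averaged over the 4 libraries, Vim had 523.8 FPKM, followed by Ina at 32.2, Nes at 20.0, Nefm at 5.20, Nefl at 1.35, Gfap at 0.478, Prph at 0.252 and Nefh at 0.193 FPKM. Down to Gfap, each gene's lowest library was above the highest library of the next gene. The ranges of Gfap, Prph and Nefh overlapped, so their order is not separated from the spread between libraries. The step from Vim to Ina was the widest, with a ratio of means of 16.3, and that from Ina to Nes was 1.61. Among protein-coding genes Vim ranked 114th and 118th by level in the controls and 43rd and 49th in the Zeb1 libraries, while Nes stayed between 4408th and 5312th.

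**Figure D1:**
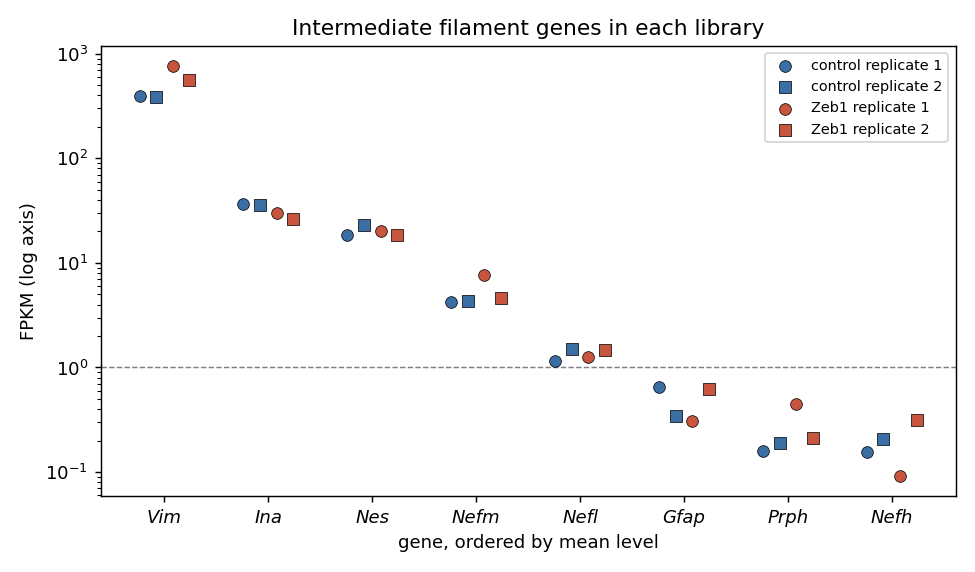
FPKM on a log axis (vertical) of each gene (horizontal, ordered by mean level) in each of the 4 libraries, with blue for control, red for Zeb1, circles for replicate 1 and squares for replicate 2. The dashed line is the mean of 1 FPKM needed for testing. Vim stands above all other members, and Gfap, Prph and Nefh lie below the line in all 4 libraries.

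In all, 5 members reached the mean of 1 FPKM needed for a test. With limma, 0 of the 5 had an adjusted p under 0.05, against 28 of all 14330 genes tested, or 0.195%. Without adjustment, 1 of the 5 was higher at a p under 0.05 (Vim) and 0 were lower, against 3.23% of all genes higher and 3.68% lower. The Zeb1 libraries lay wholly above the controls for Vim and Nefm and wholly below them for Ina, and the groups overlapped for Nes and Nefl. Of all genes tested, 18.2% had the Zeb1 libraries above both controls and 19.5% below both. The median log2 fold change was 0.03 over the 5 members and 0.00033 over all genes. In bulk RNA, a different number of cells of a type and a different amount of RNA per cell cannot be told apart.

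Vim, the gene of vimentin (ENSMUSG00000026728.9, GRCm38 chromosome 2, 13573927 to 13582826), stood at 392 and 384 FPKM in the controls, against 758 and 561 FPKM under Zeb1. Both Zeb1 libraries were above both controls, replicate 1 by more, and the controls were nearly equal. The group means were 388 ± 6.18 FPKM for control and 659.5 ± 139 FPKM for Zeb1 (SD over 2 libraries each), a ratio of 1.70. On the log2(FPKM + 1) scale this made a log2 fold change of 0.75 (standard error 0.22, 95% interval 0.13 to 1.36). The limma unadjusted p was 0.0283, the 621st smallest of the 14330 genes, and the adjusted p was 0.651. The unadjusted p was 0.0533 without a filter, 0.148 without control replicate 1, 0.158 without control replicate 2 and 0.0584 without Zeb1 replicate 1. In FPKM, the difference of 271 was the 5th largest rise in group mean among the 11916 protein-coding genes tested, a rank that favours abundant genes. Without Zeb1 replicate 1, the log2 fold change was 0.53.

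Markers of other vimentin-bearing cells were set beside these values. The 17 microglial genes summed to 610.5 and 160 FPKM in the controls, and to 1079 and 578 FPKM under Zeb1. All 16 that were tested had a positive log2 fold change, with a median of 1.23, and 0 passed, also at an unadjusted limma p under 0.05, and none of the 17 was listed at 0 in every library. Between the controls the microglial sum differed by a ratio of 3.81 and Vim by one of 1.02. Zeb1 replicate 2 and control replicate 1 had nearly the same microglial sum (ratio 0.947), and their Vim levels had a ratio of 1.43. Between the Zeb1 libraries both went the same way, with replicate 1 over replicate 2 at 1.86 for the microglial sum and 1.35 for Vim. The 12 endothelial genes summed to 11.5 and 12.4 FPKM in the controls, and to 15.8 and 11.0 FPKM under Zeb1. The 10 pericyte and smooth muscle genes summed to 10.9 and 9.72 against 20.0 and 8.18 FPKM. The 10 meningeal fibroblast genes summed to 1.83 and 1.88 against 3.17 and 2.74 FPKM, and 9 of the 10 stayed under 1 FPKM in all 4 libraries. Of these 3 vascular and meningeal lists, none had a gene at 0 in all libraries, and only the meningeal sum, like Vim, had both Zeb1 libraries above both controls. The 13 astrocyte genes, none of them at 0 in all libraries, summed to 600.2 and 237 FPKM in the controls, and to 1446 and 728 FPKM under Zeb1, so both Zeb1 libraries were above both controls. Most of that sum was Apoe, a lipid carrier that microglia also make, with 517.6 and 160.5 against 1349 and 648 FPKM. The order of the sum therefore mostly follows this gene. Of the 9 astrocyte genes tested, 4 lay wholly above the controls and 2 wholly below, against 18.2% and 19.5% of all genes tested. The part of these cells in the Vim difference was not tested.

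**Figure D2:**
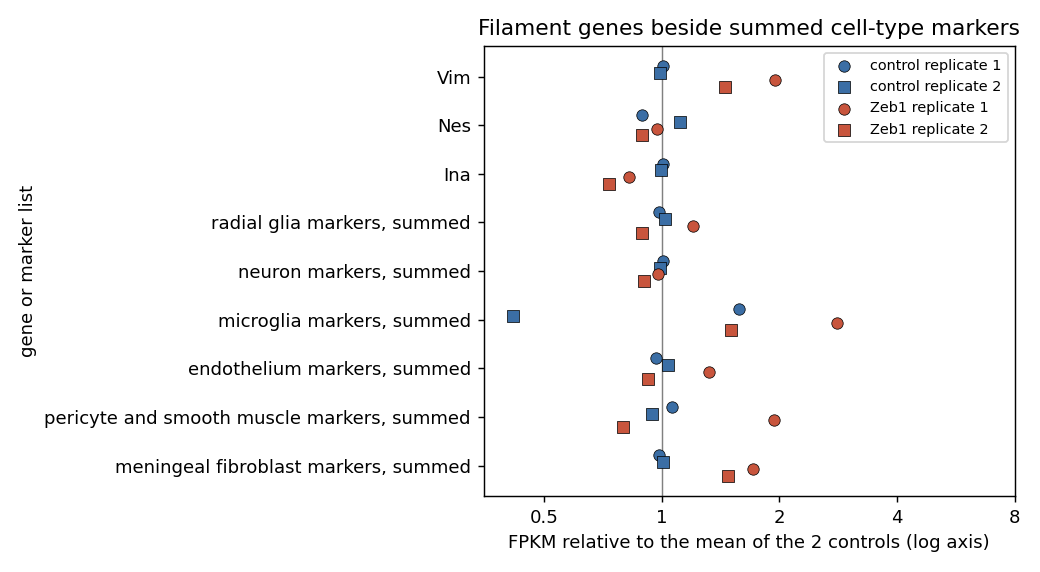
Level of Vim, Nes and Ina and of summed marker lists relative to the mean of the 2 controls (horizontal, log axis), with 1 row per gene or list, blue for control, red for Zeb1, circles for replicate 1 and squares for replicate 2. The controls sit together at 1.01 and 0.989 for Vim but at 1.58 and 0.416 for the microglial sum, and the Zeb1 libraries sit at 1.95 and 1.45 for Vim.

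Nes, the gene of nestin and vimentin's partner in radial glia (ENSMUSG00000004891.16, chromosome 3, 87971078 to 87980451), measured 18.4 and 23.05 FPKM in the controls, against 20.1 and 18.4 FPKM under Zeb1. The groups overlapped, with means of 20.7 ± 3.28 for control and 19.25 ± 1.20 FPKM for Zeb1 (SD over 2 libraries each). The log2 fold change was -0.09 with a 95% interval of -0.57 to 0.38 and a limma adjusted p of 0.92, and its sign turned without control replicate 2. Of the 19 genes of the radial glial list, which holds neither Vim nor Nes, 12 had a positive and 7 a negative log2 fold change with a median of 0.19. The test over all genes passed 0 of them, with 1 higher and 0 lower at an unadjusted limma p under 0.05. Tnc, the matrix protein tenascin, was that gene (29.5 and 27.6 against 46.1 and 37.9 FPKM, chosen after its values were seen). At the same threshold, 3.23% of all genes tested were higher and 3.68% lower.

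Because both genes come from the same libraries, their ratio does not depend on library scaling. Vim FPKM per Nes FPKM was 21.3 and 16.7 in the controls and 37.7 and 30.5 in the Zeb1 libraries. Vim per Ina was 10.8 and 10.7 against 25.4 and 21.1. In both ratios the Zeb1 libraries stood above the controls without overlap. For Vim per Ina this follows from Vim lying wholly above and Ina wholly below the controls. Vim per Nes restates the Vim difference beside Nes levels that overlapped between groups. Neither ratio is separate evidence. With 2 libraries a group, the smallest two-sided p an exact permutation could reach is 0.333, so no p is given for these ratios.

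Ina, the gene of alpha-internexin, the first neurofilament protein of newborn neurons (ENSMUSG00000034336.3, chromosome 19, 47014698 to 47025327), reached 36.4 and 35.9 FPKM in the controls, against 29.9 and 26.6 FPKM under Zeb1. Both Zeb1 libraries were below both controls, at 28.2 ± 2.35 against 36.15 ± 0.308 FPKM (SD over 2 libraries each). The log2 fold change was -0.35 with a standard error of 0.14 and a 95% interval of -0.73 to 0.03. The limma unadjusted p was 0.0639 and the adjusted p 0.738. The unadjusted p was 0.0286 without a filter, 0.0466 with median-of-ratios scaling and 0.048 with quantile normalization. Of 3240 exonic bases of Ina, 456 lie opposite those of Nt5c2, whose levels of 17.7, 13.8, 19.5 and 13.0 FPKM overlapped between groups. Whether the counting used strand is not given in the sources used here. Of the 18 neuronal marker genes, 12 had a negative log2 fold change with a median of -0.14. The test over all genes passed 0 of them, with 0 higher and 3 lower at an unadjusted limma p under 0.05. Of all genes tested, 3.23% were higher and 3.68% lower at that threshold.

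Nefm, the medium neurofilament subunit that is added to growing axons (ENSMUSG00000022054.11, chromosome 14, 68082590 to 68124846), was at 4.23 and 4.28 FPKM in the controls, and at 7.66 and 4.62 FPKM under Zeb1. Zeb1 replicate 1 stood apart, and replicate 2 was close to the controls. The log2 fold change was 0.41 with a 95% interval of -0.34 to 1.16 and a limma adjusted p of 0.764. It was 0.10 without Zeb1 replicate 1 and 0.72 without Zeb1 replicate 2. Nefl, the light subunit on which the others assemble (ENSMUSG00000022055.7, chromosome 14, 68083863 to 68089095), was at 1.16 and 1.49 FPKM in the controls, and at 1.27 and 1.46 FPKM under Zeb1. Its log2 fold change was 0.03 with a 95% interval of -0.70 to 0.76, an adjusted p of 0.993 and a sign that turned with quantile normalization and without control replicate 1 or Zeb1 replicate 2. The Nefl locus lies inside that of Nefm on the opposite strand, and 1108 of the 3380 exonic bases of Nefl are shared with Nefm, so reads there could be assigned to either without strand.

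**Figure D3:**
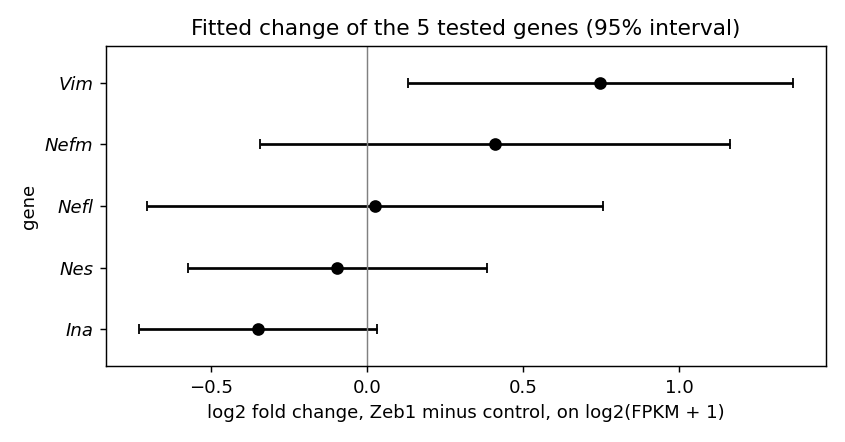
Log2 fold change (horizontal, Zeb1 minus control on log2(FPKM + 1)) of the 5 tested genes, with points for the limma estimate and bars for its 95% interval. The interval of Vim, 0.13 to 1.36, lies above 0 before adjustment over all genes, and those of the other 4 genes include 0.

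The remaining 3 members stayed under 1 FPKM in all 4 libraries and were not tested. Gfap, the astrocyte filament (ENSMUSG00000020932.14, chromosome 11, 102887336 to 102900912), gave 0.6445 and 0.343 FPKM in the controls, against 0.306 and 0.618 FPKM under Zeb1, overlapping between groups. Of 13 other astrocyte markers, 4 stayed under 1 FPKM in all 4 libraries, namely Aqp4, S100b, Agt and Gjb6. Of the 9 that were tested, 0 passed over all genes, with 1 higher and 1 lower at an unadjusted limma p under 0.05. These were Slc1a2, a glutamate transporter gene (2.72 and 1.79 against 4.57 and 6.29 FPKM), and Clu, the gene of the chaperone clusterin (15.5 and 17.6 against 11.4 and 8.75 FPKM). Both were chosen after their values were seen, and 3.23% of all genes tested were higher and 3.68% lower at that threshold. Nefh, the heavy subunit of mature axons (ENSMUSG00000020396.8, chromosome 11, 4938754 to 4948064), gave 0.157 and 0.208 FPKM in the controls, against 0.0921 and 0.315 FPKM in the Zeb1 pair, which held both the lowest and the highest value. Prph, the gene of peripherin (ENSMUSG00000023484.13, chromosome 15, 99055174 to 99058978), gave 0.158 and 0.189 FPKM in the controls, against 0.446 and 0.214 FPKM under Zeb1. Both Zeb1 libraries were above both controls, replicate 2 only slightly. Of 12 markers of peripheral and brainstem neurons, 10 stayed under 1 FPKM in all 4 libraries, and Dbh and Chat were listed at 0 throughout. The depth behind values this low is unknown, so their differences are given without a fold or an error.

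As a pool, the 8 genes summed to 453.6 and 449 FPKM in the controls, and to 817.5 and 613 FPKM under Zeb1. Vim made up 86.5% and 85.4% of that sum in the controls and 92.7% and 91.5% in the Zeb1 libraries. The mean share of Ina was 8.01% ± 0.0133 for control and 3.99% ± 0.477 for Zeb1, and that of Nes 4.595% ± 0.758 and 2.73% ± 0.383 (SD over 2 libraries each). Because Vim dominates the sum, a higher Vim lowers the shares of the other members. The Nes levels themselves overlapped between groups. Without Vim, the sum was 61.1 and 65.5 FPKM for control, against 59.8 and 52.2 FPKM for Zeb1. Among the neuronal members, Ina outweighed Nefl, Nefm and Nefh together by ratios of 6.56 and 6.01 in the controls and 3.31 and 4.15 in the Zeb1 libraries. Both groups thus had more internexin than neurofilament transcript in each library, with a lower ratio and no overlap in the Zeb1 libraries. That lower ratio restates the lower Ina and higher Nefm levels given above. The log2 ratio of Nefm to Ina was -3.11 and -3.07 in the controls and -1.96 and -2.52 in the Zeb1 libraries.

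**Figure D4:**
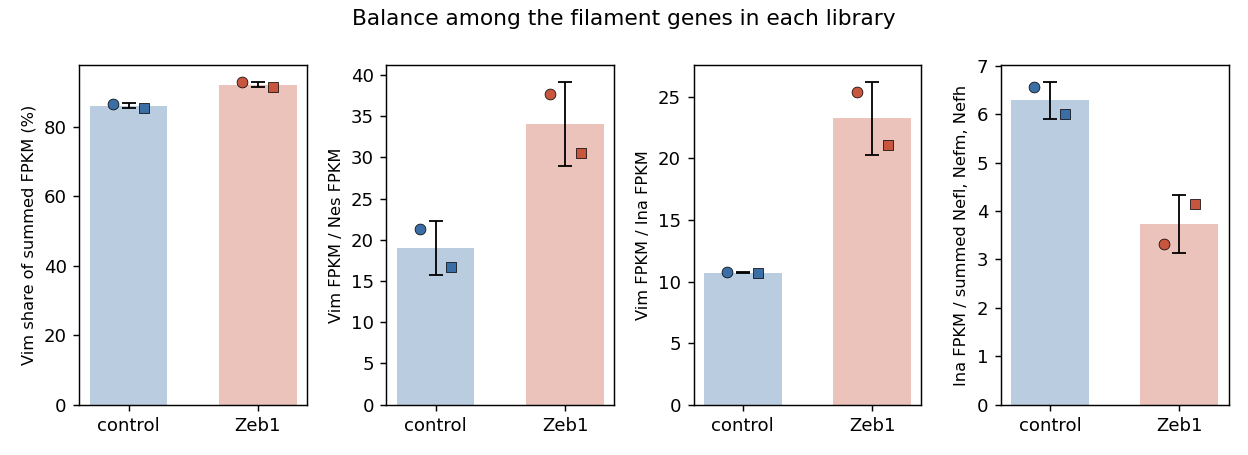
Vim share of the summed FPKM of the 8 genes in percent, Vim FPKM per Nes FPKM, Vim FPKM per Ina FPKM, and Ina FPKM per summed Nefl, Nefm and Nefh FPKM (vertical axes, from 0) in the 2 groups. Bars are means, error bars the SD of 2 libraries, circles replicate 1 and squares replicate 2. The groups do not overlap in any of the 4 panels, which restate the differences in Vim, Ina and Nefm and are not separate evidence.

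The rest of the filament system was described with 5 lists of 74 genes, of which 44 were tested and 0 passed over all genes. At an unadjusted limma p under 0.05, 2 were higher and 2 lower, against 3.23% of all genes tested higher and 3.68% lower. The higher genes were Prkacb and Cryab, and Cryab was tested only through its Zeb1 level, as given below. Of the 7 other filament genes, the 3 lamins of the nuclear envelope were tested. Lmnb1 measured 119.8 and 146 FPKM in the controls, against 123 and 123.5 FPKM under Zeb1, and Lmnb2 had a log2 fold change of -0.07. Lmna had 19.2 and 7.15 against 18.9 and 17.7 FPKM, so control replicate 2 stood apart. The muscle filament gene Des, Synm and the lens filament genes Bfsp1 and Bfsp2 stayed under 1 FPKM. Of 20 keratins, the filament proteins of epithelia, only Krt10 was tested (log2 fold change -0.11), 18 stayed under 1 FPKM in all 4 libraries and 7 were listed at 0 in all 4.

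Of 13 linker genes, which tie filaments to other structures, 7 were tested, with a median log2 fold change of -0.03, and 0 passed, also at an unadjusted limma p under 0.05. The spectraplakin genes Dst and Macf1 had log2 fold changes of 0.25 and -0.15, and Sun1 and Sun2, of the nuclear envelope bridge to the cytoskeleton, had -0.18 and 0.43. All 20 genes of filament kinases and phosphatases were tested, with 8 positive and 12 negative and a median of -0.02. Camk2b, a neuronal calmodulin-dependent kinase, measured 14.4 FPKM in both controls, against 10.55 and 10.4 FPKM under Zeb1 (unadjusted limma p of 0.031, adjusted p of 0.67). Prkacb, a catalytic subunit of protein kinase A, had 64.6 and 56.1 against 82.8 and 81.8 FPKM (0.0375 and 0.698). The kinase gene Pak1 and the phosphatase 2A regulatory subunit Ppp2r2b had log2 fold changes of -0.45 and -0.52, with an adjusted p of 0.721 each.

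Of 14 transport and turnover genes, 13 were tested, with a median of 0.06. Cryab, a small heat shock chaperone that binds vimentin and desmin type filaments, measured 0.758 and 0.602 FPKM in the controls, against 2.49 and 3.16 FPKM under Zeb1. Its control mean of 0.68 FPKM was under the mean of 1 FPKM needed for a test, so it was tested only through its Zeb1 level. Its log2 fold change was 1.18, the unadjusted limma p 0.0104 and the adjusted p 0.56. Given that selection, these values are a description only. The Zeb1 libraries lay above both controls, as for 18.2% of all genes tested. Kif5a, a neuronal kinesin that carries neurofilaments along axons, measured 35.8 and 31.0 FPKM in the controls, against 23.7 and 23.9 FPKM under Zeb1. Its log2 fold change was -0.47 and the adjusted p 0.669. The other kinesin heavy chains Kif5b and Kif5c had 0.10 and 0.27 (chosen after their values were seen). The myosin gene Myo5a had 0.38, and Stub1, a ubiquitin ligase, had -0.22.

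The protein-coding genes averaging 10 FPKM or more whose profiles over the 4 libraries lay nearest to each member were also found, by Euclidean distance between centred log2(FPKM + 1) values. For Vim they were Gm13889 (15.8, 16.0, 31.0 and 23.0 FPKM in control replicates 1 and 2 and Zeb1 replicates 1 and 2) and Shisa2 (17.5, 18.1, 35.5 and 27.6 FPKM). Their distances were 0.0526 and 0.0857, and these were the only 2 of 7327 genes within 0.1. For Nefm they were Lap3 and Rab30, and 5 genes lay within 0.1. For Ina they were Fads2 and Blm, with 51 within 0.1, for Nes 1810030O07Rik and Trim13, with 126, and for Nefl Kctd18 and Fdxr, with 112. The profiles were not scaled to the size of their changes, so a gene that changed little tends to have more genes near it. The counts within 0.1 are therefore not compared between members. With 4 libraries, such likeness is a description of these values only.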

How the data were processed

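RNA was measured in 2 control and 2 Zeb1 libraries. The values are FPKM for each gene in each library, as deposited by the authors. The submitters' processing notes name Cufflinks, STAR and DESeq2 and the build GRCm38, with no versions or roles. Library preparation followed the BGISEQ protocol per the labels. The counting's strand setting is not given in the sources used here. Without counts, depth could not be read from the files and no counting interval is given. Names that a spreadsheet had turned into dates (27) were restored from the identifiers, 1 was added to the table's starts, and the longest locus was taken where a symbol repeats.

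Libraries were compared with limma 3.58.1 (R 4.3.3) on log2(FPKM + 1), with an intensity trend, two-sided, over the 14330 genes averaging 1 FPKM or more. P-values were adjusted over all of them by the Benjamini-Hochberg method at 0.05. A fold change on this scale understates the change of low genes. The steps were tested on simulated data, in which all log2 changes put in were larger than those of the tested members. Whether changes of the members' size would be found was therefore not tested. The 8 members, the gene lists, the tests and the alternatives were chosen with earlier results of these data known. The text names all 8 members, Zeb1, up to 4 tested genes by p of each filament list and the 2 nearest profiles of each tested member. Promoter sequences are from RefSeq, which matched 5 of the 8 members. The alternatives were other pseudocounts, filters and scalings, limma without the trend or with robust moderation, protein-coding genes alone, a replicate block and leaving out each library. Figures were drawn with matplotlib 3.10.9. Eppk1 and Foxc2 were not found under their symbols and are not analysed here.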

Additional observations from a re-analysis of the deposited data

How the results depend on the processing

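No tested member passed the adjusted threshold under any of the 15 alternatives, in which limma adjusted p ranged from 0.404 to 1.0 for Vim and from 0.583 to 1.0 for Ina. The unadjusted p was under 0.05 in 11 of the 15 for Vim and in 3 of the 15 for Ina. The log2 fold change of Vim ran from 0.53 to 0.96, that of Ina from -0.43 to -0.27 and that of Nefm from 0.0989 to 0.722, all with the direction first reported. That of Nes, -0.09, was 0.0602 without control replicate 2 (leaving out single libraries gave -0.249 to 0.0602). That of Nefl, 0.03, was -0.0707 with quantile normalization, -0.0772 without control replicate 1 and -0.0316 without Zeb1 replicate 2 (leaving out single libraries gave -0.0772 to 0.128). The cause was not tested. The Zeb1 minus control difference in Vim share was 6.12 percentage points (5.52 to 6.72 with a library left out), and in the log2 ratio of Vim to Nes 0.848 (0.669 to 1.03). Over all genes, 12 were higher and 16 lower. The higher count was 143 without a filter, 20 with robust moderation, 3 for protein-coding genes alone and 5 with a replicate block. The lower count was 138 without a filter, 10 at a mean of at least 5 FPKM, 0 for protein-coding genes alone and 6 with a replicate block. Leaving out any 1 library gave 0 and 0. In the filament lists, 2 genes were higher and 2 lower by unadjusted p, against 3.23% and 3.68% of all genes tested. The higher genes include Cryab, which was tested only through its Zeb1 level. The higher count was 1 at a mean of at least 5 FPKM, without the trend and with a replicate block, and 1 to 3 with a library left out. The lower count was 4 with quantile normalization, median-of-ratios scaling, equal totals and protein-coding genes alone, 1 with a replicate block, and 0 to 1 with a library left out. In those fits the lone library is assumed to vary like the other group's. The labels do not say that a replicate number marks a pair, so the block is only an alternative. Same-numbered libraries had deviations correlated at 0.0833, but 2 pairs can neither show nor exclude pairing. The block, which leaves 1 residual degree of freedom, changed no call of a member. Unknown depth limits the genes under 1 FPKM most.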

Other observations

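Of the 20 keratins, the filament genes of epithelia, 6 had both replicates 1 above both replicates 2, whatever the plasmid, a pattern chosen after the values were seen. They were Krt8, Krt17, Krt19, Krt20, Krt80 and Krt222, and 0 keratins had the opposite order. Of all 14330 genes tested, 3451 (24.1%) had replicates 1 on top in this way, and 1656 had the opposite order. The lean to replicates 1 thus ran over all genes tested, and the 6 keratins are not read as a result about keratins. That share is over genes averaging 1 FPKM or more, whereas these 6 keratins averaged less and were not tested. Another 7 of the 20 were at 0 in every library and could not show either order. Krt17 had 0.0368 and 0.03701 FPKM in replicate 1 of control and Zeb1, against 0.03655 and 0 in replicate 2. Krt8 had 0.712 and 0.841 FPKM in replicate 1 of control and Zeb1 and was listed at 0 in both replicates 2. Krt19 had 0.9225 and 1.10 FPKM in the same libraries and was listed at 0 in the others. Over all genes tested, the deviations of same-numbered libraries from their group means had a correlation of 0.0833 across genes, which are not independent replicates. With no counts in the table, the number of reads behind these values is unknown.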
